A study of Homo sapiens with 26 samples.

Results

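In HCT116, a human colorectal cancer cell line, 5683 of the 15909 DNMT3B peaks in the deposited merged list were under 10000 bp wide and had their midpoint in the last 30% of a gene. Each peak was placed on the longest named transcript of at least 2000 bp that held its midpoint, and positions were counted 5′ to 3′ by strand, with 70% as the threshold. These last-part peaks made up 35.7% of the list (95% Wilson interval 35.0% to 36.5%) and lay in 3360 genes, called host genes here. The middle 40% of genes held 6286 peaks and the first 30% held 2631, by the same rule. Another 841 peaks were at least 10000 bp wide, 257 of them with their midpoint past 70%, and 468 narrower ones lay in no named transcript of that length. All intervals given here are 95% Wilson intervals and cover counting error alone.

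The peaks came from ChIP with an antibody to the FLAG tag in HCT116 lines that stably express FLAG-DNMT3B (2 libraries, 2 inputs), beside lines with FLAG-ZBTB24 (3 libraries) or the tag alone (FLAG-only, 2 libraries). All FLAG lines were made with lentivirus under puromycin and grown from single cells, so each is 1 clone, and the tagged proteins are ectopic copies added to cells that keep their own genes. RNA came from cells with a hairpin against ZBTB24 (shZB, 3 libraries) and with a non-targeting hairpin (shNT, 3 libraries), from FLAG-ZBTB24 clones (2 libraries) and FLAG-EMPTY clones (2 libraries), and from a DNMT3B knockout (3BKO, 1 library) and wild-type cells (WT, 1 library). The peaks were deposited as 1 merged list per factor and the RNA as 1 pooled value per group, so no spread between libraries and no library depth can be given, and no test between conditions was made beyond the authors' own. A FLAG-only peak list was not analysed here. Of the 16 colon epithelial markers checked against the labelled cell type, the RNA tables list only some, and the authors' deposited table of the knockdown lists 2. CDH1, an epithelial adhesion gene, had 23.2 FPKM in shZB cells and 46.3 FPKM in shNT cells, and CDX2, an intestinal transcription factor gene, had 18.8 FPKM in shZB cells and 6.90 FPKM in shNT cells, in the authors' deposited table.

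DNMT3B is a DNA methyltransferase that adds methyl groups to CpG sites that carry none. Its PWWP domain binds histone H3 methylated on lysine 36 (H3K36), a mark that SETD2 lays down while it travels with elongating RNA polymerase II and that is known to build up towards the 3′ part of transcribed genes. Mutations of DNMT3B, ZBTB24, CDCA7 and HELLS cause ICF syndrome (immunodeficiency, centromeric instability and facial anomalies), in which satellite repeats lose methylation.

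The sequences that could be read for stretches inside the last-part peaks were those of microRNA genes. In all, 22 microRNA genes lay wholly inside 19 of these peaks, against 32 inside middle peaks and 8 inside first-part peaks, of 1881 microRNA genes in the deposited annotation. RefSeq (GRCh38.p14) held a hairpin for 20 of the 22, matched by gene symbol. Of these 20 hairpins, 11 (55%) held at least 1 CpG, the base pair step that DNMT3B methylates, against 64.2% of all 1560 hairpins in the table. Among the 11 is MIR6859-3, whose RefSeq sequence lies on chromosome 15, while its gene under the peak lies on chromosome 1. The hairpins below are shown because they are transcribed sequence under last-part peaks of 4 hosts, with each CpG in capitals. None of them touches an exon of its host transcript.
MIR8075 hairpin: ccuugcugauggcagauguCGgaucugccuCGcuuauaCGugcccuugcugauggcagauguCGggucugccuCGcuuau
MIR25 hairpin: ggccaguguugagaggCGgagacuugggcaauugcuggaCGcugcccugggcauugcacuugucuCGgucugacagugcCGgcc
MIR106B hairpin: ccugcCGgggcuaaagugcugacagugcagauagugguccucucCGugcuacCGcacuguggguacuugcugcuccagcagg
MIR26A2 hairpin: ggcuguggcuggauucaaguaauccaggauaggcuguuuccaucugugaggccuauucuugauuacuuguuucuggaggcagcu
MIR103A2 hairpin: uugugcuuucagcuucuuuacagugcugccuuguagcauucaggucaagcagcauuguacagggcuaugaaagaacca

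MIR8075, with 5 CpG, lay in CUL4A under the peak with the highest score among those that hold a microRNA gene (4.61), at chr13:113916490-113921403 (hg19). MIR25 (chr7:99691183-99691266, minus strand), with 4 CpG, MIR106B (chr7:99691616-99691697), with 3, and MIR93 lay together under 1 peak of 6052 bp at chr7:99690003-99696054 in MCM7, which encodes a subunit of the replicative helicase. MIR26A2 in CTDSP2 and MIR103A2 in PANK2 have no CpG in their hairpins, so microRNA genes under these peaks had hairpins with and without CpG. For 21 of the 22 the microRNA gene ran on the same strand as its host, and 2 of the 22 touched a host exon. The mature forms from 4 of these hairpins are given with the seed, bases 2 to 8, in capitals. No seed was shared by different mature microRNAs of the set that RefSeq listed. MIR93, which lies beside MIR106B, and MIR3653 had no sequence there. Their seeds were not compared, so a seed that they share with the others would be missed.
hsa-miR-25-3p: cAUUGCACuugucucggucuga
hsa-miR-106b-5p: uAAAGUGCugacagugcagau
hsa-miR-26a-5p: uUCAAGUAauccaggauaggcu
hsa-miR-103a-3p: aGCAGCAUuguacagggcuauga

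Along all 22121 genes with a named transcript of at least 2000 bp, DNMT3B peaks were sparse at the start and dense towards the end. Counting the midpoints of peaks under 10000 bp in the longest transcript of each gene, the last 30% of genes held 14.6 midpoints per Mb, the middle 40% held 11.96 and the first 30% held 6.71. In steps of 10% of the gene, the density was 14.9 per Mb between 70% and 80%, 15.2 between 80% and 90% and 13.6 in the last 10%, against 3.55 in the first 10%. Where the density was highest depended on how long the gene was. In genes over 150 kb it was 5.09 midpoints per Mb in the last 30%, 2.36 in the middle and 2.06 in the first 30%, and it was highest in the last 10%, at 6.36. In genes of 50 to 150 kb it was 22.4 in the last 30%, 17.8 in the middle and 10.8 in the first 30%. In genes of 10 to 50 kb the last 30% and the middle were close, at 29.2 and 30.3 midpoints per Mb, against 14.3 in the first 30%. Genes under 10 kb had 16.9 in the last 30%, 14.2 in the middle and 1.22 in the first 30%. Genes over 150 kb had the lowest density of the 4 classes in the last and middle parts, and theirs was the class in which the last part stood furthest above the middle, as a ratio.

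**Figure D1:**
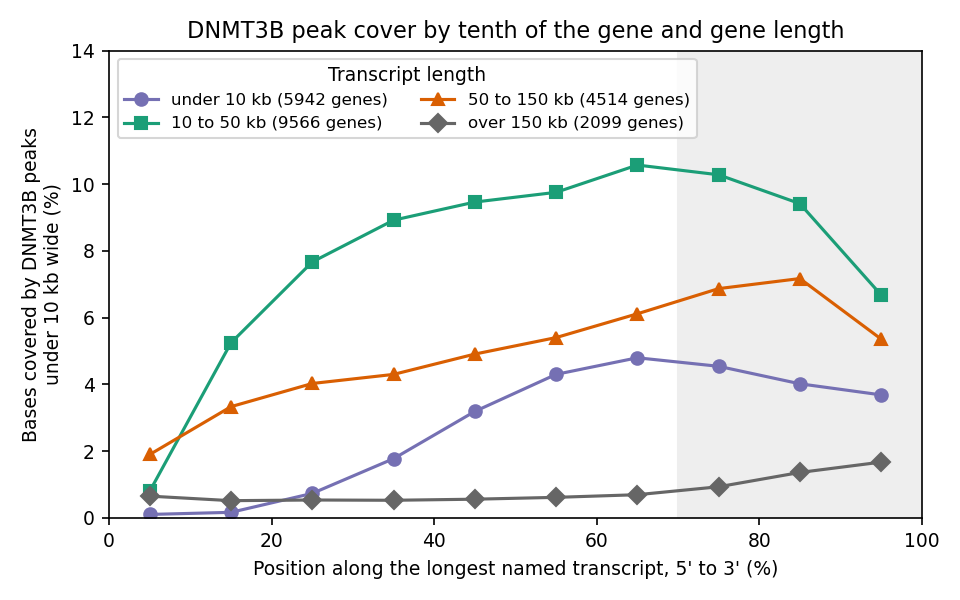
Share of bases covered by DNMT3B peaks under 10 kb wide (y axis, %) in steps of 10% of the longest named transcript (x axis, 5′ to 3′, %), with 1 line per class of transcript length; the last 30% is shaded. In genes over 150 kb the cover is 1.67% in the last 10% and 0.693% between 60% and 70%, while in genes of 10 to 50 kb it is 6.68% in the last 10% and 10.6% between 60% and 70%.

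Cover by DNMT3B peaks of any width dropped at the annotated transcript end. In the 3360 host genes, 33.9% of bases between 9000 and 8000 bp before the end lay in a DNMT3B peak, 33.2% between 4000 and 3000 bp before it and 20.3% in the last 1000 bp. Beyond the end, counting only bases outside named transcripts, the share was 9.85% in the first 1000 bp, 4.25% in the next 1000 bp and 0.45% between 9000 and 10000 bp. Hosts were chosen for holding a peak before the end, so the same profile over all 10194 genes with an assembled transcript is the one free of the choice. There the share was 16.5% between 10000 and 9000 bp before the end, 7.15% in the last 1000 bp and 4.05% in the first 1000 bp after it. The set of genes changed along the profile, with 8232 genes in the first of these bins and 10087 in the last 1000 bp, where shorter genes are included. How much of the fall inside the gene comes from this change was not tested. A gene counts as having an assembled transcript when its locus in the deposited annotation holds at least 1 unnamed transcript, that is, one built from the RNA reads.

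**Figure D2:**
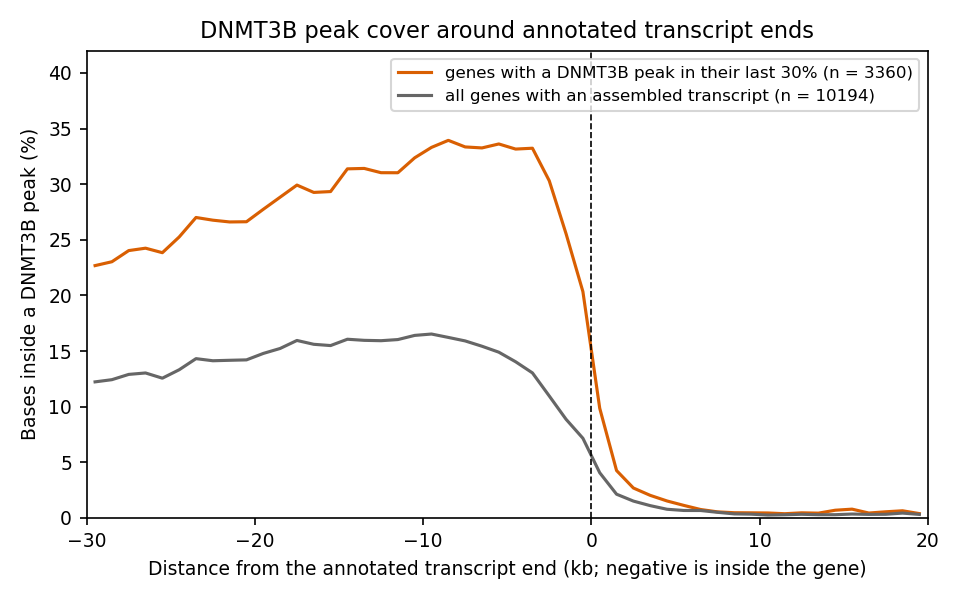
Share of bases inside a DNMT3B peak (y axis, %) in bins of 1000 bp by distance from the annotated transcript end (x axis, kb, negative inside the gene), for the 3360 host genes and for all 10194 genes with an assembled transcript. Both lines drop within the last 3000 bp of the gene and lie under 5% from 1000 bp past the end on.

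The rule places the midpoint of each last-part peak inside the gene, and its distance from the end varied. The midpoints lay a median of 8912 bp before the transcript end, and 30.4% were within 5000 bp of it (1725 of 5683). Only 7.74% reached past the end (440 peaks, interval 7.08% to 8.47%), by a median of 552.5 bp and at most 4241 bp. The last exon was touched by 19.6% of last-part peaks, against 1.37% of middle and 0.038% of first-part peaks. Any exon was touched by 71.5% of last-part peaks (interval 70.3% to 72.6%), 63.2% of middle peaks and 54.5% of first-part peaks. A single peak touched at least 5 exons in 5.81% of cases, and up to 20.

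These exon counts have to be read against how much exon each stretch holds. In the last 30% of host genes 14.1% of peak bases and 13.5% of all bases were exon. With the last exon left out, 6.58% of peak bases and 4.66% of all bases were exon. For middle peaks, also without the last exon, the shares were 5.92% and 3.62%, and for first-part peaks 4.70% and 3.31%. Exons other than the last thus took a larger share of peak bases than of the stretch in each part. Last-part peaks covered 17.6% of the bases of last exons and 20.6% of the other bases of the last 30% of hosts. Only last-part peaks were counted here, so a peak over a last exon with its midpoint past the transcript end was left out. The rule itself can therefore lower the cover of last exons, and how much it does so was not tested.

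Transcription starts were rare under the peaks. Last-part peaks held 56 of the 360 named transcript starts in the last 30% of their hosts, or 3.69 starts per Mb of peak against 4.82 per Mb of the stretch. In first-part hosts, where most starts lie, the peaks held 3.92 starts per Mb against 57.1 per Mb of the stretch. Only 0.633% of last-part peaks (36 of 5683) had their midpoint within 1000 bp of any named start, close to the 0.684% of middle and 0.836% of first-part peaks. The midpoint of 5.09% of last-part peaks (289) lay in a further named gene as well, on the opposite strand in 189 cases.

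In width and score the last-part peaks were like the other peaks within genes. Their width had a median of 2300 bp (quartiles 1417 and 3792.5, range 281 to 9994), against 2458 bp for middle and 2335 bp for first-part peaks. The score is the authors' own value per peak, of a kind not given in the sources used here, and is used only to rank peaks within the list. It ran from 2.20 to 5.41 with a median of 3.38 in last-part peaks, against 3.40 in middle and 3.38 in first-part peaks. Over the 5683 peaks, which share 1 merged list, Spearman's rho was 0.18 between score and width and −0.06 between score and position in the gene.

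The peaks nearest the limits of the rule were as follows. Just past the 70% threshold lay a peak of STAMBP (70.01%) and one of PLEKHA6 (70.03%), and just short of it lay one of PCF11 (69.99%). The widest peaks kept were in CD44 (9994 bp) and LTA4H (9985 bp), and the next wider ones, left out, were in AREL1 (10007 bp) and TXNDC9 (10051 bp). The shortest host transcripts were those of DND1 (2791 bp) and GEMIN6 (3780 bp).

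The highest score of the 5683 belonged to a peak of 1172 bp in ARPC2, which encodes a subunit of the Arp2/3 complex that branches actin filaments. It had a score of 5.41 and lay at chr2:219117874-219119045 (hg19), 612 bp before the transcript end and touching the last of 11 exons. ZNF131, a zinc finger gene, followed with 4.82 for a peak at chr5:43163719-43164874 that touched no exon. HMGXB3 had 4.81 for a peak over 4 of its 20 exons, TAMM41, a gene of mitochondrial lipid synthesis, had 4.69, and MTMR14, a phosphoinositide phosphatase gene, had 4.67. CUL4A, which encodes a ubiquitin ligase scaffold, had 4.61 for a peak that ran 2011 bp past its end. XRCC5, which encodes the Ku80 protein of DNA end joining, had 4.60 and LAPTM4A, a lysosomal membrane protein gene, had 4.54. CDH1 had 4.52 for a peak of 8260 bp over exons 6 to 10 of 16, and BANP had 4.48. Of these 10 peaks, 3 touched the last exon, those of ARPC2, CUL4A and LAPTM4A, and 4 touched no exon.

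Most hosts held few peaks in their last part. A single one was found in 61.3% of hosts (2060 of 3360), 2 in 22.8%, 3 in 8.60%, 4 in 4.17% and at least 5 in 3.13% (105 hosts, which together held 664 of the peaks). The peaks covered a median of 25.4% of the last 30% of a host (quartiles 11.6% and 46.0%), and 735 hosts (21.9%) had at least 50% of it covered. Neighbouring last-part peaks of 1 transcript were a median of 2384 bp apart (2319 gaps), close to the median width of the peaks. Of all hosts, 58.1% also held a narrow peak in the middle of the gene and 29.6% one in the first part. Last-part peaks alone, with neither a narrow peak elsewhere in the gene nor one of at least 10000 bp, were held by 32.0% (1076). Hosts with narrow peaks in all parts had a median transcript length of 60020 bp, against 44793 bp for these 1076 hosts.

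The hosts with most last-part peaks were long genes, and where hosts tied at 8 peaks those with the highest peak scores, ABCC1 and MTOR, are described. ACACA, which encodes the acetyl-CoA carboxylase that starts fatty acid synthesis, and PTK2, the focal adhesion kinase gene, had 13 each, over 38.1% and 43.3% of their last 30%. RPTOR and MTOR, which encode the scaffold and the kinase of mTOR complex 1, had 12 and 8, over 34.2% and 51.8%. ASAP1, an Arf GTPase-activating protein gene, and DST, a cytoskeletal linker gene, had 10 each, and FRYL had 9. APBB2 also had 9, over 17.5% of its last 30%. ABCC1, a drug efflux transporter gene, had 8 over 46.1%. NBPF20 had 13, but its transcript of 2.32 Mb runs through near-identical copies of its family, so its reads could have come from other copies and its count is uncertain. Outside the last part these genes differed: ASAP1 held no narrow peak in its middle or first part, APBB2 and FRYL held narrow peaks in the middle and none in the first part, and MTOR held them in every part.

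**Figure D3:**
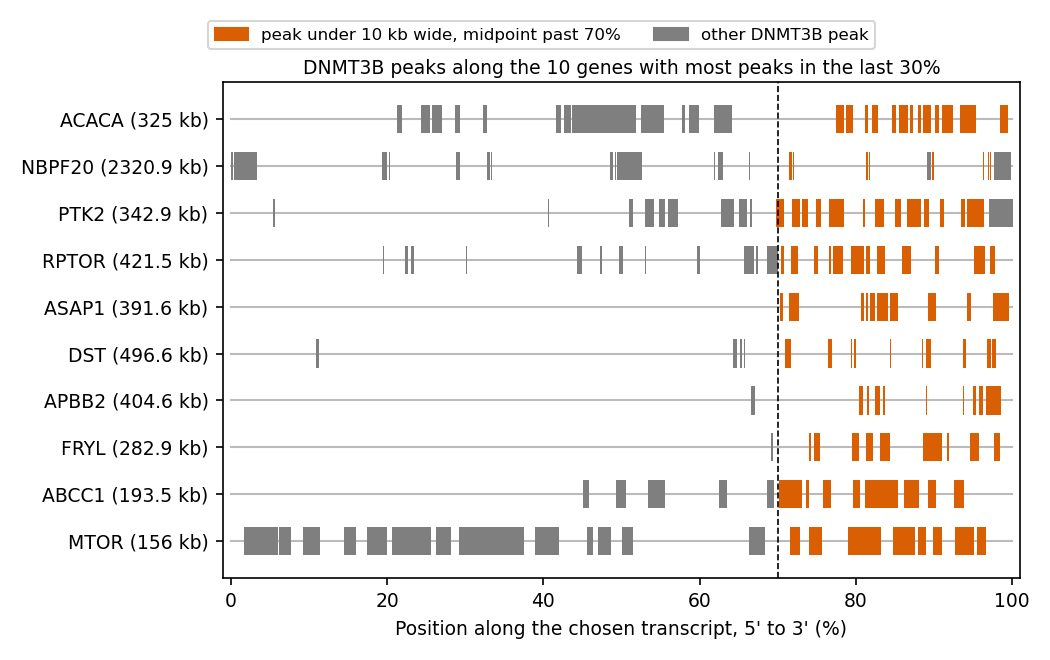
DNMT3B peaks along the 10 host genes with most last-part peaks (ties at 8 peaks broken by the highest score), as position in the chosen transcript (x axis, 5′ to 3′, %); orange bars are peaks under 10 kb wide with their midpoint past 70% (dashed line), grey bars are all other DNMT3B peaks. ASAP1 (391.6 kb) has bars past 70% alone, and MTOR (156 kb) has them in every part of the gene.

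At the other end of the size range, 10 hosts of at least 10 kb with the highest scores among those whose last 30% was wholly covered were each covered by 1 peak: PRDX3, ATP5J, LDB1, NAA40, SPAG5, MTFR1L, ATP5A1, ANAPC16, AKIRIN1 and MRPS10. Their transcripts ran from the 11095 bp of MRPS10 to the 21474 bp of SPAG5. PRDX3 encodes a mitochondrial peroxiredoxin, ATP5J and ATP5A1 encode subunits of ATP synthase, MRPS10 a mitochondrial ribosomal protein, LDB1 a cofactor of LIM-domain transcription factors and SPAG5 a spindle protein. SPAG5 also held a narrow peak in its middle, PRDX3 and NAA40 held one in their first part, and the other 7 held none elsewhere.

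Hosting was commonest in genes of middle length and in genes with an assembled transcript. Of all 22121 genes 15.2% were hosts, and of the 10194 genes with an assembled transcript 26.5% were. By length, hosts made up 2.42% of genes under 10 kb, 16.3% of genes of 10 to 50 kb, 28.8% of genes of 50 to 150 kb and 17.0% of genes over 150 kb. Among genes with an assembled transcript the same shares were 5.06%, 25.3%, 42.9% and 30.05%. An assembled transcript was present at 80.4% of hosts, at 77.8% of genes with narrow DNMT3B peaks outside the last part alone and at 35.1% of genes with no DNMT3B peak. By RefSeq type, 97.5% of hosts were protein-coding genes (3267 of 3350 matched) and 1.07% were lncRNA genes, against 84.0% and 12.3% of all 21143 matched genes.

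By chromosome, 660 last-part peaks lay on chromosome 1, 464 on 2 and 397 on 17. The share of genes that were hosts ran from 10.8% on chromosome 21 to 19.6% on chromosome 14 for the autosomes other than 19. On chromosome 19 it was 8.38% (120 of 1432 genes), or 13.8% of genes with an assembled transcript. On the X chromosome 4 of 868 genes were hosts (0.461%), or 1.34% of those with an assembled transcript. The X held 17 DNMT3B peaks of any kind and 0 of the 6173 FLAG-ZBTB24 peaks, a list made from other clones. What the X values owe to copy number, mapping or the making of the lists was not tested.

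Lists of genes by function differed in how many members were hosts. The shares below are to be read against the 15.2% of all genes and the 26.5% of genes with an assembled transcript, and against the length of the listed genes. Among genes with an assembled transcript, 25.3% of those of 10 to 50 kb and 42.9% of those of 50 to 150 kb were hosts. Of the enzymes that add or remove H3K36 methylation, 8 of 13 were hosts (61.5%, interval 35.5% to 82.3%, median transcript length 138811 bp). SETD2, the enzyme that trimethylates H3K36, held 2 last-part peaks, with scores of 3.64 and 3.45. NSD1, which dimethylates it, held 7 between 70.9% and 95.2% of its length, with scores of 3.17 to 3.67. KDM2B and KDM4A, demethylase genes, had highest scores of 3.63 and 3.58. Of genes for H3K36 methylation readers, 7 of 16 were hosts, among them BRPF1 (3.78), GLYR1 (3.67), MTF2 (3.38) and BRD1 (3.30).

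Of the genes for DNA methylation and ICF syndrome, 10 of 19 were hosts (52.6%, interval 31.7% to 72.7%). TET3, a methylcytosine oxidase gene, had a highest score of 3.80, UHRF1, which brings DNMT1 to hemimethylated DNA, had 3.78, and the ICF genes CDCA7 and HELLS had 3.55 and 3.38. CDCA7L had 3.48. The maintenance methyltransferase gene DNMT1 held 2 last-part peaks over 53.9% of its last 30%. DNMT3B and ZBTB24 themselves were not hosts.

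Genes of transcription elongation were hosts in 17 of 29 cases (58.6%, interval 40.7% to 74.5%). ELL2 and CCNT1, of the super elongation complex, had highest scores of 4.16 and 3.66, RTF1, of the PAF complex, had 3.92 and the kinase gene CDK12 had 3.62. Genes of 3′ end processing were hosts in 8 of 22 cases, with CSTF3 (3.87), SCAF8 (3.53), CSTF1 (3.51) and SCAF4 (3.44) first by score. Core splicing factors were hosts in 8 of 35 cases (22.9%, interval 12.1% to 39.0%), close to the background, among them PRPF31 (4.19), PRPF19 (3.64) and SF3A1 (3.62).

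DNA repair genes were hosts in 19 of 31 cases (61.3%, interval 43.8% to 76.3%, median length 76572 bp). XRCC5 held 4 last-part peaks, and the mismatch repair gene PMS2 (3.74) and the end-processing gene RAD50 (3.67) followed. Chromatin remodelers were hosts in 15 of 28 cases, with SRCAP (4.14), ARID1A (4.12), PBRM1 (3.93) and SMARCA4 (3.87) first, and Polycomb genes in 10 of 24, with EZH2, the H3K27 methyltransferase gene (3.97), PHC2 (3.65), SUZ12 (3.48) and PHC3 (3.33) first. Kinase signalling genes were hosts in 14 of 28 cases, with TSC1 (4.22), MTOR (4.11) and RPTOR (3.97) first. Wnt pathway genes were hosts in 12 of 30, with the co-receptor gene LRP5 (4.09), ZNRF3 (3.85) and RNF43 (3.66), which encode ligases that remove Wnt receptors, and the kinase gene CSNK1A1 (3.68) first.

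Other lists lay at or under the background. Of 36 interferon-stimulated genes 4 were hosts (11.1%, interval 4.41% to 25.3%): OAS3, UBE2L6, OASL and DDX58. Of 14 colon epithelial markers 2 were, CDH1 and EPCAM. Of 28 neuronal and muscle genes, which are long (median 937358 bp) and of which 6 had an assembled transcript, 1 was a host, ASTN2. None of 37 cytosolic ribosomal protein genes was a host (interval up to 9.41%). These are short, with a median of 4512 bp, and 13 of the 37 had an assembled transcript. The genes of the olfactory and keratin-associated list had no named transcript of at least 2000 bp.

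Genes named ZNF followed by a number, most of which encode zinc finger proteins, were hosts in 35 of 524 cases (6.68%, interval 4.84% to 9.15%). The share was 0.791% on chromosome 19, where many lie in clusters (2 of 253, ZNF865 and ZNF175), and 12.2% on the other chromosomes (33 of 271). Those with the highest scores were ZNF131 (4.82), ZNF609 (4.31), ZNF398 (4.19) and ZNF318 (3.99). Of their 46 last-part peaks 18 touched the last exon (39.1%, interval 26.4% to 53.5%), against 19.5% of last-part peaks in other genes (interval 18.5% to 20.5%). Whether these exons encode zinc fingers was not checked. The ZNF peaks also lay nearer the end, at a median of 5358.5 bp against 8956 bp.

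**Figure D4:**
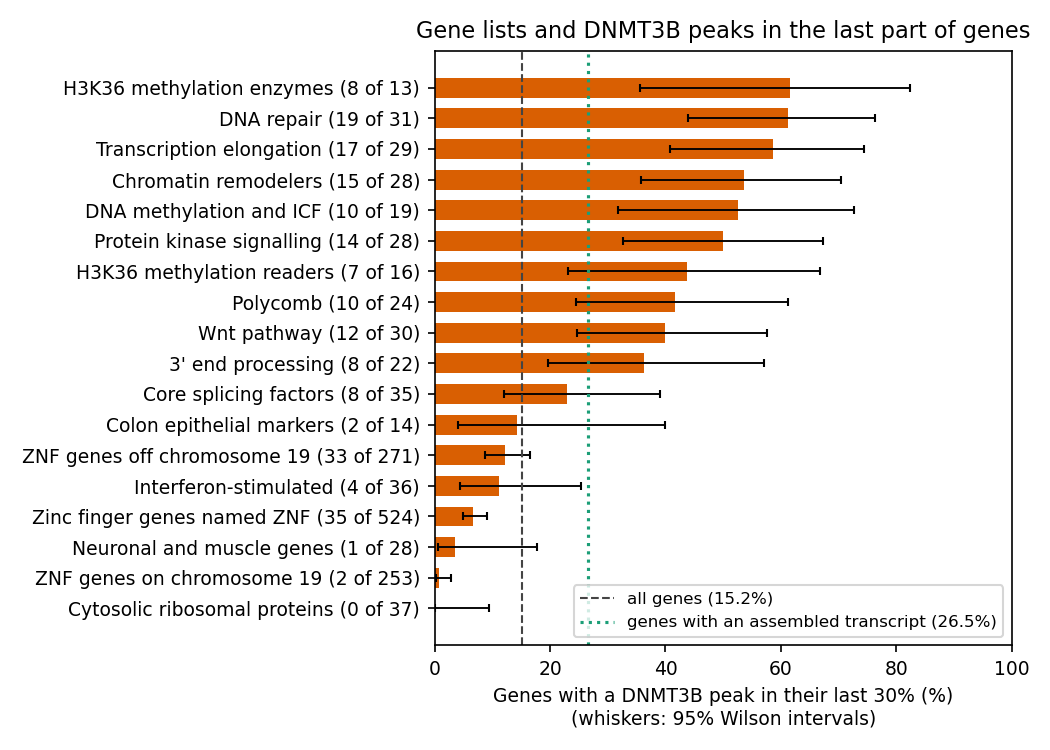
Share of the genes of each list that hold a last-part DNMT3B peak (x axis, %; bars, with 95% Wilson intervals as whiskers and counts in the labels), beside the share of all genes (dashed line, 15.2%) and of genes with an assembled transcript (dotted line, 26.5%). The interval lies wholly above the dotted line for 6 lists (H3K36 methylation enzymes, DNA repair, transcription elongation, chromatin remodelers, DNA methylation and ICF, protein kinase signalling), and the bar is at 0 for cytosolic ribosomal proteins. The lines are not matched for length: genes of 50 to 150 kb with an assembled transcript were hosts in 42.9% of cases. Of these 6 lists, all but transcription elongation (32795 bp) have a median length in that class. Of the lists in that class only DNA repair has an interval wholly above 42.9%. The elongation interval, 40.7% to 74.5%, lies above the 25.3% of genes of 10 to 50 kb with an assembled transcript.

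ZBTB24, a zinc finger protein and the product of an ICF gene, was mapped in the same cell line, which lets its sites be set beside the DNMT3B peaks of the last part. The 2 factors hardly met there: 3 of 5683 last-part peaks overlapped a ZBTB24 peak by at least 1 bp (0.053%, interval 0.018% to 0.155%), against 1 of 6286 middle and 0 of 2631 first-part peaks. The 3 lay in RAP1GAP2, PARL and SDHA, and the ZBTB24 peak in SDHA had a score of 9.18. At the other end of the gene, 224 of 3360 hosts (6.67%, interval 5.87% to 7.56%) had a ZBTB24 peak within 1000 bp of a start. This was close to the 7.14% of genes with narrow DNMT3B peaks outside the last part alone (interval 6.09% to 8.36%) and to the 5.57% of genes with an assembled transcript (interval 5.14% to 6.03%). Over all genes the share was 4.25%.

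The hosts with the strongest ZBTB24 promoter peaks by the authors' score were CDCA7 (55.4), the splicing factor gene CDC40 and its divergent neighbour WASF1 (1 peak, 49.7), the TFIID subunit gene TAF6 (43.1), OSTC (37.1) and PREPL (36.4). CDCA7 shows the arrangement: the ZBTB24 peak at chr2:174219128-174219679 lay 158 bp from the start, and the DNMT3B peak at chr2:174229530-174231123 (score 3.55) lay at 76.0% of the gene over exons 6 to 8 of 10. The 250 bases before the start of 4 of these hosts, from RefSeq (GRCh38.p14), are printed, for TAF6 and PREPL at 1 of several starts that the table gives, with every match to CAGGACCT, or to AGGTCCTG on the other strand, in capitals. The letters are those known as the core of the ZBTB24 recognition motif, searched in the 250 bases alone, and a match is a description, not a site.
CDCA7: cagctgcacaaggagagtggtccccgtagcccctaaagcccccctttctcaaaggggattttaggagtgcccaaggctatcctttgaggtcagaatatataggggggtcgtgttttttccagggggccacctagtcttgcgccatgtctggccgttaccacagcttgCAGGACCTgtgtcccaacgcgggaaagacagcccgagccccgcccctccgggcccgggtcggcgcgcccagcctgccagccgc
CDC40: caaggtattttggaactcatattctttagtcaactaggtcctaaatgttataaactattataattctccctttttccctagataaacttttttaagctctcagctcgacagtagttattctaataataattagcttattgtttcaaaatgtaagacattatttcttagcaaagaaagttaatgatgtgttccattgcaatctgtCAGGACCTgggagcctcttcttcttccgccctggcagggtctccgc
TAF6: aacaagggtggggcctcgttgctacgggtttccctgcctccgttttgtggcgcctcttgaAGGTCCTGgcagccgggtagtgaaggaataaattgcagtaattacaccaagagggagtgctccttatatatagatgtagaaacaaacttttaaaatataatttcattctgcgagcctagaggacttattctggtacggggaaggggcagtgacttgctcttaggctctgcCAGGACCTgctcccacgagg
PREPL: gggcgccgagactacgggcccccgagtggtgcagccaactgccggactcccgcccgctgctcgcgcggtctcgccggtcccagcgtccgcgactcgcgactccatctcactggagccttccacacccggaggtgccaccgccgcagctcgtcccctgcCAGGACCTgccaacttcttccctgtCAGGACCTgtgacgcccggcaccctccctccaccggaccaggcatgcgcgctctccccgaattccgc

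On GRCh38.p14 the windows are chr2:173354622-173354871 on the plus strand for CDCA7, chr6:110180177-110180426 on the plus strand for CDC40, chr7:100119359-100119608 on the minus strand for TAF6 and chr2:44361863-44362112 on the minus strand for PREPL. TAF6 and PREPL hold the letters at 2 places each and CDCA7 and CDC40 at 1. Over RefSeq windows of the same 250 bases, the letters on either strand were in 11 of 168 hosts with a ZBTB24 promoter peak (6.55%), in 23 of 2458 other hosts (0.936%) and in 440 of all 27305 genes of the table (1.61%), a gene being counted when any of its windows held them. The windows were printed because they hold the letters. The windows of OSTC and WASF1, the 2 other windows of PREPL and 1 other of TAF6 do not, and this says only that they are not in these 250 bases.

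The RNA tables show at which level the listed host genes were transcribed and how they changed. Each deposited table holds part of the loci: the smallest absolute log2 fold change is 0.50 in the shZBTB24 and FLAG-ZBTB24 tables and 1.001 in the knockout table. The authors' largest unadjusted p is 0.0549 in the shZBTB24 table and 0.839 in the FLAG-ZBTB24 table. Shares of listed loci past q can therefore not be compared between tables. Within these tables host loci had higher FPKM than loci without a DNMT3B peak. In the authors' deposited table of the knockdown, listed host loci had a median of 19.1 FPKM in shZB cells and 16.9 FPKM in shNT cells, against 5.33 and 5.25 FPKM for loci with no DNMT3B peak. In the authors' deposited table of FLAG-ZBTB24 clones, hosts had 14.3 FPKM in FLAG-ZBTB24 and 12.8 FPKM in FLAG-EMPTY clones, against 2.32 and 2.14 FPKM for loci with no peak. In the authors' deposited table of the knockout, hosts had 21.8 FPKM in 3BKO and 7.35 FPKM in WT cells, against 3.71 and 0.545 FPKM for loci with no peak. Loci with DNMT3B peaks outside the last part alone were close to the hosts, with 14.7 FPKM in shNT, 11.5 FPKM in FLAG-EMPTY and 5.02 FPKM in WT cells in the authors' deposited tables. FPKM is a level per transcript length and library size. In bulk RNA, fewer cells with a transcript and less of it per cell cannot be told apart.

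**Figure D5:**
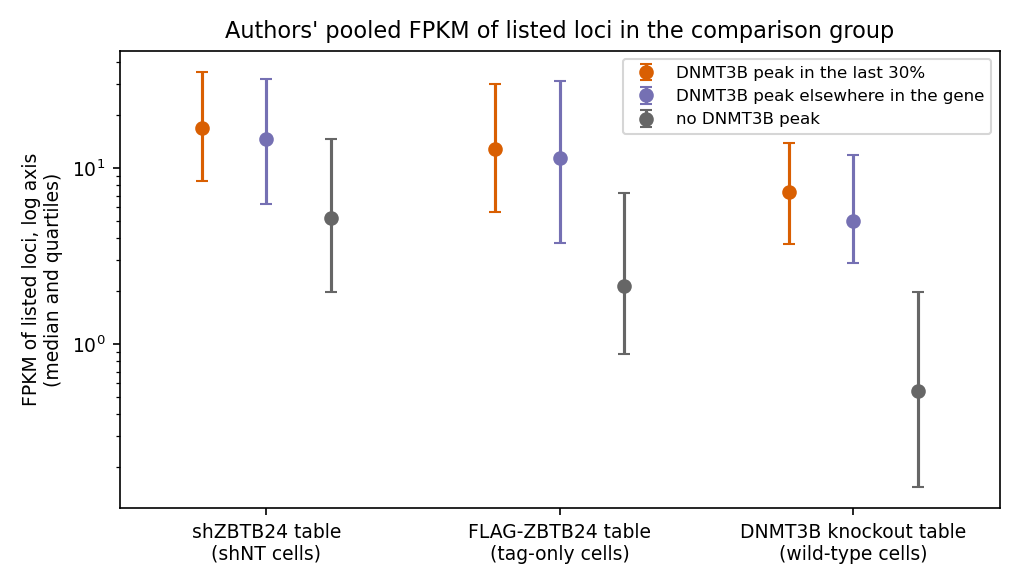
FPKM from the authors' deposited tables (y axis, log scale; points are medians and whiskers are quartiles over listed loci) in shNT, FLAG-EMPTY and WT cells for loci with a last-part DNMT3B peak, with such a peak elsewhere alone and with none. In all 3 tables loci with a last-part peak have the highest median, at 16.9, 12.8 and 7.35 FPKM.

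Knockdown of ZBTB24 moved hosts in both directions at about the rate of the other listed loci. The authors' deposited table gives no row to ZBTB24, and the depth of the knockdown is therefore not known from it. It lists 1965 loci, of which 405 are hosts (20.6%), and by its q under 0.05, 53 hosts rose and 37 fell in shZB cells relative to shNT cells. These are 13.1% and 9.14% of the listed hosts, beside 12.2% and 9.82% of all listed loci (22% in either direction). All listed loci had an unadjusted p of at most 0.0549 by the authors' test, so these shares are not rates over all genes. The median log2 fold change of listed hosts was 0.68 for the 244 higher and −0.63 for the 161 lower, against 0.79 and −0.76 over all listed loci in the authors' deposited table.

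Of 31 loci of the interferon-stimulated list in the authors' deposited table all were higher in shZB cells and 25 rose, 3 of them hosts, OAS3, DDX58 and UBE2L6. In the authors' deposited table OAS3, which encodes an antiviral 2′-5′-oligoadenylate synthetase, had 23.3 FPKM in shZB and 6.44 FPKM in shNT cells (log2 fold change 1.86, q = 0.00493). SP110, an interferon-induced nuclear body gene, had 26.3 and 9.94 FPKM (1.41), and PARP12, also interferon-induced, had 22.4 and 8.08 FPKM (1.47), both with q = 0.00493 in the authors' deposited table. DDX58, the RNA sensor gene also called RIG-I, rose by 1.38 (q = 0.00493) and UBE2L6, an enzyme gene of ISG15 conjugation, by 0.92 (q = 0.0164), while OASL had 0.82 (q = 0.0591) and did not pass, in the authors' deposited table. The last-part DNMT3B peak of OAS3 was 7759 bp wide at chr12:113399470-113407228 (hg19), covered exons 9 to 14 of 16, and had a score of 3.63.

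The other lists are to be read against all hosts, of which 406 of 3360 (12.1%) are listed in the authors' deposited table of the knockdown. In the authors' deposited table of the knockdown, 0 of 17 elongation hosts were listed, 3 of 19 DNA repair hosts were listed as higher and 1 of 15 remodeler hosts as higher, none past q under 0.05. Of the 8 hosts among H3K36 methylation enzymes 1 was listed, as lower and not past that q, and of the 10 hosts among DNA methylation and ICF genes 1 was listed, as higher and not past it, in the authors' deposited table. Of the 12 Wnt pathway hosts 4 were listed and 1 rose, RNF43, with 31.5 FPKM in shZB and 15.9 FPKM in shNT cells (log2 fold change 0.98, q = 0.0316) in the authors' deposited table.

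MCM4, which encodes a subunit of the replicative helicase, had 19.5 FPKM in shZB and 6.46 FPKM in shNT cells (log2 fold change 1.59) and CDC25A, the phosphatase gene of S phase entry, had 4.22 and 1.397 FPKM (1.60), in the authors' deposited table. The other hosts with the largest rises there were OSCP1 (1.94), SFXN2 (1.70), SPICE1, in 1 locus with CFAP44 (1.40), and POLR3F, an RNA polymerase III subunit gene (1.39). The locus of PVT1, MIR1204 and MIR1206 is listed with 20731 FPKM in shZB and 190.3 FPKM in shNT cells (6.77, q = 0.00493) in the authors' deposited table, levels that cannot be assigned to 1 of its genes. In the authors' deposited table of the knockout this locus has 35822 FPKM in WT cells. Its level thus differed widely between shNT and WT cells, neither of which had the ZBTB24 hairpin, and why was not tested.

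The hosts with the largest falls in shZB cells had diverse known roles. In the authors' deposited table MSMO1, an enzyme gene of cholesterol synthesis, had 25.2 FPKM in shZB and 54.4 FPKM in shNT cells (log2 fold change −1.11). CIT, the citron kinase gene of cytokinesis, had 3.60 FPKM in shZB and 8.44 FPKM in shNT cells (−1.23), and CDH1 fell by 0.997 with 23.2 and 46.3 FPKM, all 3 with q = 0.00493 in the authors' deposited table. Of the hosts past q the largest fall was that of ERN1, the IRE1 sensor of the unfolded protein response, at −1.27 (q = 0.0139) in the authors' deposited table. Further falls there were those of RBM15 (−1.22), UNC5B (−1.20), IQGAP3 and KIF21B (−1.16 each), CDCA4 (−1.14) and FUT1 (−1.13). Whether the 3 libraries of a hairpin are separate cultures is not stated, and the q values may then cover no more than technical spread.

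In FLAG-ZBTB24 clones against FLAG-EMPTY clones no host passed q under 0.05 in the authors' deposited table, of 215 hosts among 1754 listed loci. By its unadjusted p under 0.05, 7 hosts were higher and 9 lower, beside 61 higher and 113 lower of all 1754 listed loci. Over all listed loci 0.228% rose and 0.342% fell by that q (0.57% in either direction). The locus that holds ZBTB24 together with MICAL1 had 154.6 FPKM in FLAG-ZBTB24 and 17.8 FPKM in FLAG-EMPTY clones (log2 fold change 3.12, q = 0.0192) in the authors' deposited table.

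The DNMT3B knockout had 1 library, as had its wild type, so its values have no replicate check and compare those libraries. DNMT3B is not listed in its 2243 rows, all of which are higher in 3BKO cells. Of these, 111 are hosts (4.95%), and 1, OAS3, passed q under 0.05 in the authors' deposited table, beside 0.312% of all listed loci. OAS3 had 150.3 FPKM in 3BKO and 8.29 FPKM in WT cells (log2 fold change 4.18, q = 0.00636) in the authors' deposited table. Other hosts known to be induced by interferon are listed with OASL at 58.3 FPKM in 3BKO and 1.48 FPKM in WT cells, DDX58 at 47.9 and 4.61, UBE2L6 at 138.5 and 17.4, SP110 at 60.8 and 5.92 and PARP12 at 67.9 and 8.36 FPKM, none of which passed that q in the authors' deposited table. The median log2 fold change of listed hosts was 1.30, against 2.12 over all listed loci, in the authors' deposited table. These start from unlike levels: 5.41% of listed hosts and 56.8% of all listed loci had under 1 FPKM in WT cells. How much of the difference comes from this was not tested. All 36 loci of the interferon-stimulated list in that table were higher in 3BKO cells, since the table holds no lower rows under that label, and 3 rose. The same table has 1112 rows under a further label, DNMT3BKOshZB, that matches no sample, all of them lower than WT, in which 0 of 235 hosts passed q under 0.05, beside 0.36% of those rows, in the authors' deposited table.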

How the data were processed

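Peaks were deposited by the authors as 1 merged list per factor, with a score per peak. The submitters' processing notes name MACS2, HISAT2, StringTie, Cufflinks and the build hg19, without versions or settings. The authors also deposited tables with 1 pooled FPKM per group, the log2 fold change, a test statistic (a score) and p-values and q-values, and a merged transcript annotation. Peaks were placed on transcripts with Python 3.11.15, pandas 2.3.3 and numpy 2.4.6, and positions were tested on simulated data. Peaks overlapped by at least 1 bp. Sequences came from RefSeq tables (GRCh38.p14), matched by symbol, since no hg19 genome was used here. Expression calls are the authors' q under 0.05. Genes were named by rule: hosts of the 10 highest scores, the 10 with most peaks, the 10 of at least 10 kb most covered, up to 10 per table and direction past q, up to 4 per list, and those at the thresholds. The microRNA and ZBTB24 examples, and OASL, SP110 and PARP12 in the knockout, were chosen after their values were seen. The members and lists were chosen with earlier results of these data known. Alternatives included other thresholds, widths, scores and promoter distances. Rows labelled DNMT3BKOshZB match no sample and are given apart. Some genes that the naming rule selects are not reported here.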

Additional observations from a re-analysis of the deposited data

How the results depend on the processing

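Of 31 alternatives, 21 left the value within its limit and 10 moved it. A threshold of 80% gave 3743 peaks in place of 5683, and keeping scores at or above the list's median gave 2717 peaks in 1963 hosts and 100 hosts on the gene lists in place of 169. With those scores alone, 38.4% of midpoints in genes lay in the last 30%, against 39.2% with all. An exon held the midpoint of 15.2% of peaks, where 71.5% touched one. ZBTB24 promoter peaks were at 5.03% of hosts within 500 bp of a start and at 8.99% within 5000 bp, against 6.67% within 1000 bp. At q under 0.1, 80 hosts were higher and 59 lower in the authors' deposited table of the knockdown, against 53 and 37. The count of peaks was 5538 to 5940 under the other transcript and width rules, 7504 at a threshold of 60% and 4998 with the whole peak past 70%, all within 1.5 times. No paired analysis was possible because the lists are merged and the RNA values pooled, which also prevented leaving out a library. Peak depth and the signal of a FLAG-only list were not analysed here, so signal from the tag or antibody within these peaks was not tested.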

Other observations

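The knockout table also holds 1112 rows labelled DNMT3BKOshZB, a label that matches no sample, all of them lower than WT. Of these, 235 are hosts of last-part DNMT3B peaks (21.1%) in the authors' deposited table. The hosts among them have a median of 8.27 FPKM in DNMT3BKOshZB and 22.5 FPKM in WT, against 1.82 and 6.69 FPKM for loci with no DNMT3B peak, in the authors' deposited table. RNF43, a Wnt receptor ligase gene with 78.6% of its last 30% under peaks, has 0.501 FPKM in DNMT3BKOshZB and 18.8 FPKM in WT, and CDH1 has 6.10 and 27.3 FPKM, in the authors' deposited table. CDCA7 has 13.3 FPKM in DNMT3BKOshZB and 36.9 FPKM in WT, and DNMT3B, no host, has 6.46 and 21.1 FPKM, in the authors' deposited table. These genes are examples, and larger falls of hosts are listed, such as that of MEGF11, with 0.129 and 6.26 FPKM. WT had 1 library and the label matches none, so the differences have no replicate check.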
